A study of Mus musculus with 4 samples.

Results

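Voltage-gated sodium channel subunit genes were read from the deposited tables by their symbols, which gave 7 genes of 24421 listed. They are the alpha subunit genes Scn1a, Scn2a1 (the older symbol of Scn2a), Scn3a and Scn8a, and the beta subunit genes Scn2b, Scn3b and Scn4b. The 4 libraries came from fluorescent cells of the mouse brain, 100 cells picked by hand with a glass pipette for each library. The 2 libraries labelled excitatory hold αCaMKII-positive cells and the 2 labelled inhibitory hold vGAT-positive cells. The mice were males aged 3 to 5 months from αCaMKII-Cre and vGAT-IRES-Cre colonies, each kept by breeding with wild-type C57Bl/6J animals, so the label of a cell rests on which Cre line marked it. All libraries share this strain background. The labels name no mutant allele and no treatment, and leave unsaid whether libraries of the same label were taken from different animals. P-values therefore reflect variation among these libraries alone, possibly technical.

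Voltage-gated sodium channels carry the rising phase of the action potential. Each channel has 1 large alpha subunit, which forms the pore and gives the channel its name (Nav), and smaller beta subunits, which change gating and bind the channel to neighbouring proteins. In the adult forebrain Nav1.1 (Scn1a) is best known from parvalbumin interneurons, Nav1.2 (Scn2a) from the initial segments and unmyelinated axons of excitatory neurons, Nav1.6 (Scn8a) from mature initial segments and nodes of Ranvier, and Nav1.3 (Scn3a) from the developing brain. The beta2 and beta4 subunits (Scn2b, Scn4b) are held to the alpha subunit by a disulfide bond, and beta3 (Scn3b) is not.

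Values are given as deposited, on a log2 scale of normalized reads, and each difference is excitatory minus inhibitory on that scale unless another scale is named. Linear values are 2 to the power of the value, minus 1, an offset that is assumed. A listed 0 does not show that no read was counted. From 12609 to 12798 genes were above 0 in a library, and depth, estimated from how far apart the smallest nonzero values lie, was 62000000 to 74200000 reads. The vGAT gene Slc32a1 was listed at 0 in all 4 libraries, and Gad1 was at 10.91 and 11.17 (excitatory) and at 11.45 and 11.59 (inhibitory). Of 8 markers of GABAergic neurons 7 were tested, and 4 of them (Lhx6, Sst and Pvalb included) were higher in the libraries labelled excitatory and 0 in those labelled inhibitory (2 and 1 after scaling). Pvalb did not pass after scaling (limma adjusted p = 0.0575). Of 8 markers of glutamatergic neurons, 4 (Slc17a6, Camk2a, Neurod6 and Tbr1) were higher in the libraries labelled excitatory and 2 (Emx1 included) in those labelled inhibitory, or 4 and 3 after scaling. Over all tested genes 45.0% and 26.8% were called in these directions, or 32.4% and 33.5% after scaling, and nothing is read from the marker counts. Slc17a6, for example, had 9.08 and 8.49 against 0 and 0, and Emx1 had 0.43 and 0 against 7.04 and 7.23. Lhx6 had 11.95 and 11.29 against 4.69 and 7.53. Slc17a7 had 12.19 and 12.06 against 11.99 and 11.67, and Gad2 had 9.73 and 10.39 against 10.14 and 10.13. Neither Slc17a7 nor Gad2 passed in either scaling. Values of single markers thus went both with and against the labels, and excitatory and inhibitory name libraries by their labels only. Pan-neuronal markers made up 0.252% to 0.266% of the linear signal in every library, while 7 astrocyte markers made up 2.55% and 2.61% (excitatory libraries) and 2.34% and 2.15% (inhibitory libraries). The 6 oligodendrocyte markers made up 3.66% and 3.72% against 5.11% and 5.02%, and the 6 microglia markers 0.0175% and 0.0208% against 0.0785% and 0.0623%. The 4 markers of oligodendrocyte precursors, cells that are known to carry sodium channels too, made up 0.000251% and 0.000262% against 0.00473% and 0.00642%. Of these, Pdgfra reached 10.84 and 11.51 in the inhibitory libraries but 0 in each excitatory one. Vcan had 0.43 and 1.90 (excitatory libraries) against 9.44 and 9.18 (inhibitory libraries). Gpr17 had 7.66 and 7.66 in the excitatory libraries but 0 in each inhibitory one, and Cspg4 had 1.83 in inhibitory 2 and 0 elsewhere. Of 5 endothelial markers, Cldn5, Kdr and Tek were at 0 in all 4 libraries, Flt1 had 1.37 and 1.87 against 0 and 0, and Pecam1 had 2.82 in inhibitory 2 and 0 elsewhere. The part of these other cells in the results on sodium channel genes was not tested.

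The alpha subunit genes are close relatives, and the coding sequence shows how far reads of one can resemble another. Scn1a, Scn2a and Scn3a lie within 1 stretch of chromosome 2, and Scn8a lies on chromosome 15. Coding sequences of the longest GENCODE transcripts (release M21, GRCm38) were compared. Of all 50-base windows of the Scn1a coding sequence, 4.98% were also in Scn2a and 4.80% in Scn3a, and 8.09% of those of Scn2a were in Scn3a. Scn8a shared 0 windows with Scn1a, 0 with Scn2a and 6 with Scn3a. These shares do not give the size of any error in the values of the 3 chromosome 2 genes, which was not tested. No source used here gives the read length or the handling of reads that match several places, and untranslated parts were not compared.

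Of the 7 genes, 6 reached 1 in 2 or more libraries and were tested, and Scn4b was not. By limma's moderated test over 13619 genes, adjusted by Benjamini-Hochberg and called under 0.05, Scn8a and Scn2b were higher in the excitatory libraries, Scn1a was higher in the inhibitory libraries, and Scn2a1, Scn3a and Scn3b did not pass. So 3 of 6 tested genes passed, where 71.8% of all tested genes passed, 45.0% of them higher in the excitatory and 26.8% higher in the inhibitory libraries (shares of all genes tested). After median-of-ratios scaling, which brings the median difference of all tested genes from 0.52 to -0.006, the same 3 genes passed in the same directions, with 65.9% of all tested genes called, 32.4% and 33.5% by direction. The split by direction thus differed between the scalings. Mbp, 1 of the oligodendrocyte markers, was listed at 21.33 in all 4 libraries, and its difference was -0.54 after scaling. Its estimated reads were 2037919 and 2139643 (excitatory libraries) against 3663564 and 3030072 (inhibitory libraries). Whether the authors' scaling was tied to Mbp was not tested. With 6 genes tested, the count of 3 was not tested against those shares, and nothing is read from it. In pooled cells, fewer cells of a type and less RNA per cell cannot be told apart.

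**Figure D1:**
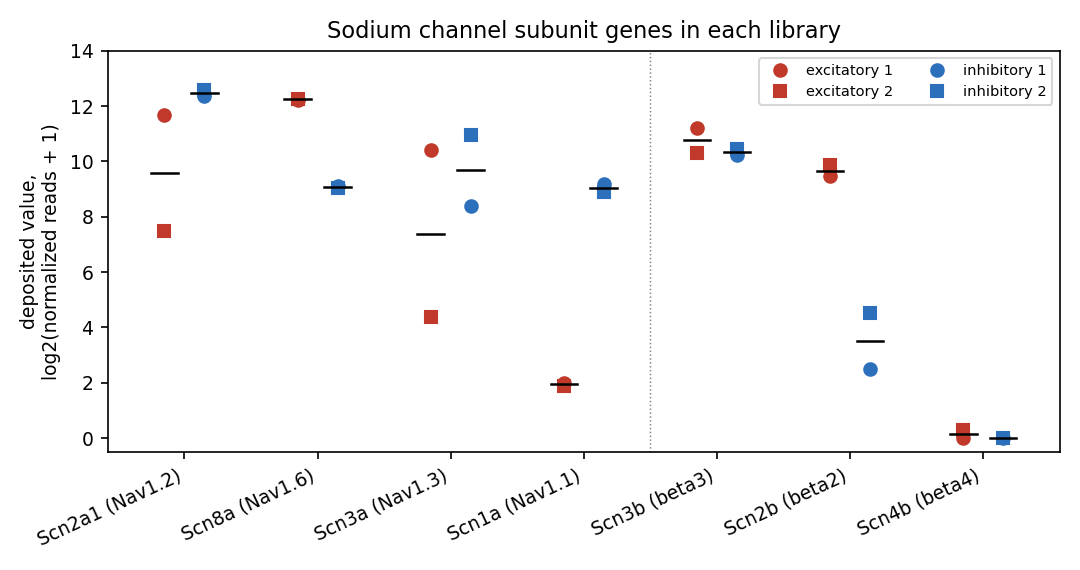
Deposited log2 value (vertical axis) of the 7 sodium channel subunit genes (horizontal axis, alpha subunits left of the dotted line) in each of the 4 libraries, with a bar at the mean of each label. Scn1a sits near 1.9 in the excitatory and near 9 in the inhibitory libraries, Scn8a shows the opposite order, and Scn2a1 and Scn3a are spread widely between the 2 excitatory libraries.

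Scn1a encodes Nav1.1 (chr2:66270778-66440840, minus strand, mm10). Its deposited values were 1.98 and 1.90 (excitatory libraries) and 9.17 and 8.90 (inhibitory libraries). Each excitatory library was at the level of about 3 reads, and the inhibitory libraries were at about 800 and 550 reads. The groups did not overlap, and the libraries within each label lay within 0.27 of each other. The difference was -7.10 (SE 0.33, limma adjusted p = 0.000117) and -7.57 after scaling (adjusted p = 0.000137). From the estimated reads, 6 in all against 1350, the ratio was 140 (95% exact interval 64.3 to 383, for counting error only), higher in the inhibitory libraries. With a pseudocount of 10 in place of 1 the difference was -5.38. Scn1a passed with any 1 library left out (adjusted p up to 0.0177).

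Scn8a encodes Nav1.6 (chr15:100869858-101045938, plus strand). It had 12.23 and 12.27 (excitatory libraries) against 9.11 and 9.06 (inhibitory libraries), the closest agreement within labels of the 6 tested genes. The excitatory libraries were 8.98-fold higher (difference 3.17, SE 0.17, limma adjusted p = 0.000154), or 6.17-fold after scaling (adjusted p = 0.000337). This call held with any 1 library left out (adjusted p up to 0.0157). Scn1a and Scn8a therefore differed in opposite directions between the same libraries.

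Scn2a1, the gene of Nav1.2 (Scn2a at chr2:65620771-65767447, plus strand), had the highest value of the 7 genes in both inhibitory libraries, 12.36 and 12.58. The excitatory libraries had 11.66 and 7.50, a 17.9-fold gap between libraries of 1 label. Both lay below the inhibitory ones, but the difference of -2.89 (SE 1.39, 95% interval -6.56 to 0.79) missed the threshold of limma's test (adjusted p = 0.123). It also missed the threshold after scaling (-3.43, adjusted p = 0.0900). Without excitatory replicate 1 the difference was -4.97 and passed (adjusted p = 0.0163), and without excitatory replicate 2 it was -0.81 and did not (0.0798).

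Scn3a, the gene of Nav1.3 (chr2:65457118-65567627, minus strand), varied most within the labels. It had 10.40 and 4.39 in the excitatory libraries, about 1041 against 17 estimated reads, and 8.38 and 10.97 in the inhibitory ones, about 462 and 2306 reads. The groups overlapped. The difference of -2.28 (SE 2.18, 95% interval -8.05 to 3.48) did not pass (limma adjusted p = 0.390) and was 0.72 without excitatory replicate 2 (adjusted p = 0.756).

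Scn2a1 and Scn3a thus had low values in the same library, excitatory 2. Among 8936 tested genes with a mean above 7 in the excitatory libraries, 8 (0.0895%) differed by at least 4, or 16-fold, between the 2 excitatory libraries. These are Scn2a1, Scn3a, 4930532I03Rik, Gcn1l1, Hist1h1e, Hist1h4c, Hist1h4d and Ppfia2, listed after their values were seen. Of the 8, Scn2a1 and Scn3a were lower in excitatory 2 and the other 6 were lower in excitatory 1. Over all tested genes the median gap was 0.30 for the excitatory pair and 0.29 for the inhibitory pair. Scn2a and Scn3a are neighbours 53143 bases apart that point away from each other. In the inhibitory libraries, where 2 of 8877 such genes differed this much, Scn2a1 differed by 0.22 and Scn3a by 2.59, with Scn3a higher in inhibitory 2.

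**Figure D2:**
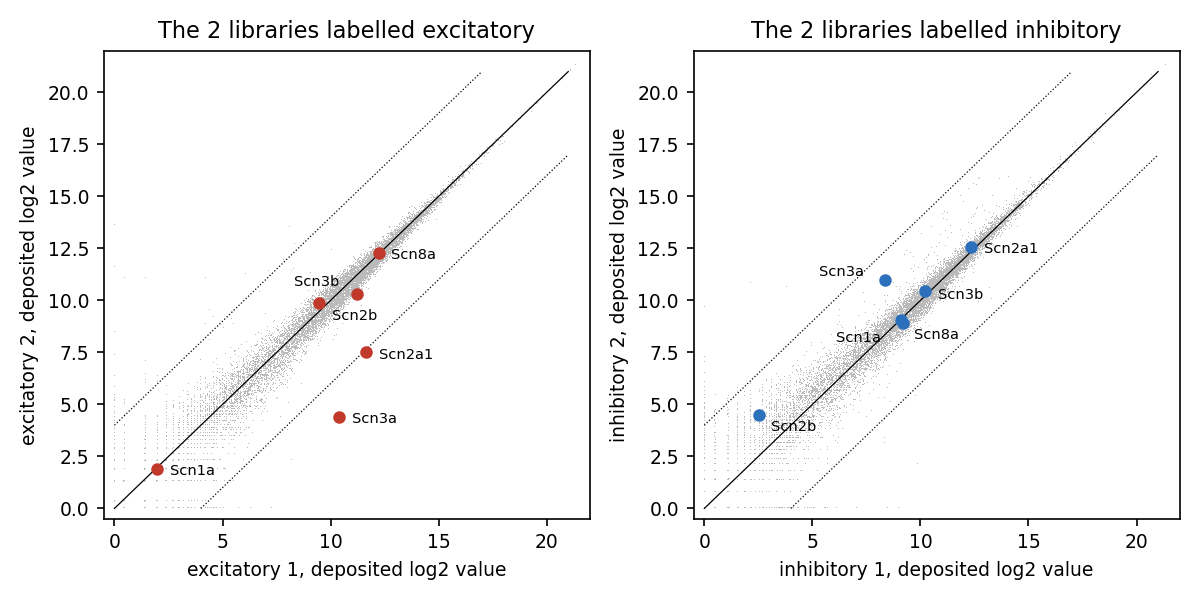
Deposited log2 values of 13619 tested genes (grey) and of the 6 tested sodium channel genes (coloured) in library 1 (horizontal) against library 2 (vertical) of each label, with the line of equal values and dotted lines 4 log2 units away. Scn2a1 and Scn3a lie beyond the dotted line on the excitatory side, and no sodium channel gene does on the inhibitory side.

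Of the beta subunit genes, Scn2b (chr9:45117782-45130070, plus strand) had 9.47 and 9.87 (excitatory libraries) against 2.51 and 4.50 (inhibitory libraries). The inhibitory values correspond to about 7 and 25 reads. The excitatory libraries were 71.5-fold higher (difference 6.16, SE 0.73, limma adjusted p = 0.00163), or 50.1-fold after scaling (0.00283). The groups did not overlap, but Scn2b no longer passed when excitatory replicate 1 (adjusted p = 0.0886) or excitatory replicate 2 (0.0947) was omitted, with differences of 6.36 and 5.96. It passed without inhibitory replicate 1, where the difference was 5.17, and without inhibitory replicate 2, where it was 7.15.

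Scn3b (chr9:40269217-40291618, plus strand) was near the same level throughout, with 11.22 and 10.31 (excitatory libraries) and 10.23 and 10.45 (inhibitory libraries). The groups overlapped, and the difference of 0.43 (SE 0.35, 95% interval -0.50 to 1.36) did not pass (limma adjusted p = 0.324). It turned to -0.11 after median-of-ratios scaling (adjusted p = 0.785), to -0.09 after upper-quartile scaling and to -0.03 without excitatory replicate 1. The interval reaches 1.36, so the test does not show equal levels. Scn4b (chr9:45138395-45154152, plus strand) was listed at 0 in excitatory 1 and in both inhibitory libraries and had 0.29 in excitatory 2, the level of 1 read. Scn4b starts 8324 bases after the end of Scn2b, and only the latter had more than 1 estimated read in any library.

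**Figure D3:**
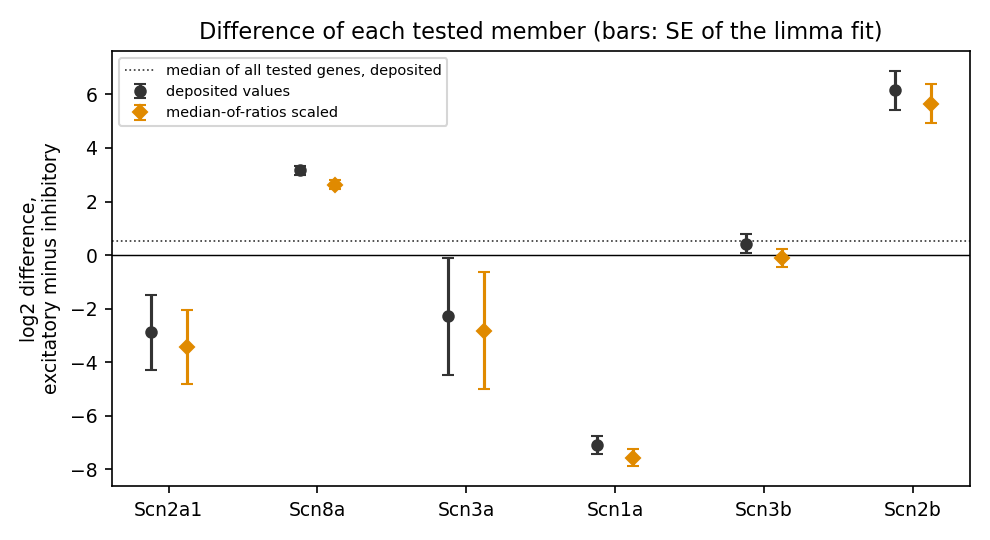
Log2 difference, excitatory minus inhibitory (vertical axis), of each tested sodium channel gene with the SE of the limma fit, from deposited values (circles) and after median-of-ratios scaling (diamonds). The dotted line marks the median of all tested genes, 0.52; the bars of Scn2a1 and Scn3a are the widest, and the scaled Scn3b value lies on the other side of 0.

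Levels were compared between genes as linear values (reads as normalized by the authors) per kilobase of the longest transcript. In the excitatory libraries the order of mean levels was Scn3b (441), Scn8a (426), Scn2a1 (191), Scn2b (176), Scn3a (71.5), Scn1a (0.338) and Scn4b (0.0226). Within that order Scn3b, at 575 and 306, overlapped Scn8a, at 420 and 431, and Scn2a1, at 362 and 20.1, overlapped Scn3b, Scn2b (152 and 200) and Scn3a (141 and 2.09). In the inhibitory libraries the order was Scn2a1 (636), Scn3b (313), Scn3a (122), Scn1a (62.9), Scn8a (47.3) and Scn2b (2.83), with Scn4b at 0. There Scn3a, at 34.8 and 210, overlapped both Scn1a (68.7 and 57.0) and Scn8a (48.1 and 46.5), and these latter genes did not overlap.

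Apart from the assumed offset, a share within a library does not depend on how the authors scaled that library. Shares of genes with few reads are approximate for that reason. Among the 4 alpha subunit genes, per kilobase, Scn8a made up 45.5% and 95% (excitatory libraries) against 6.50% and 4.66% (inhibitory libraries). Scn2a1 made up 39.2% and 4.43% against 79.5% and 68.6%. Scn1a made up 0.0379% and 0.0718% against 9.28% and 5.72%, and Scn3a 15.3% and 0.460% against 4.70% and 21.1%. Scn8a was thus the leading alpha gene in both excitatory libraries and Scn2a1 in both inhibitory ones. In excitatory 1 the level of Scn8a was only 1.16 times that of Scn2a1, against 21.4 times in excitatory 2, while Scn2a1 was 12.2 and 14.7 times Scn8a in the inhibitory libraries. Mean shares were 70.3% ± 35.0 (SD, n = 2) and 5.58% ± 1.3 for Scn8a, and 21.8% ± 24.6 and 74.0% ± 7.75 for Scn2a1. The exact two-sided permutation test gave p = 0.333 for Scn1a, Scn2a1 and Scn8a, the smallest that 2 against 2 libraries allow, and p = 0.667 for Scn3a.

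The level of Scn1a also changed sides relative to Scn8a. Scn8a was 1200 and 1320 times Scn1a per kilobase in the excitatory libraries, where Scn1a rests on about 3 reads each. These 2 ratios are rough, since at so few reads they depend on the assumed offset of 1. In the inhibitory libraries Scn1a was 1.43 and 1.23 times Scn8a. The sum of the 4 alpha genes per kilobase was 923 and 454 (excitatory libraries) and 740 and 997 (inhibitory libraries) (linear values), ranges that overlap. After scaling the sums were 746 and 384 against 918 and 1170, which do not overlap. Among the 3 beta genes Scn3b led in every library, with 79.1% and 60.5% (excitatory libraries) against 99.7% and 98.6% (inhibitory libraries), and Scn2b held 20.9% and 39.5% against 0.348% and 1.37% (exact permutation p = 0.333 for each, n = 2 per label).

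**Figure D4:**
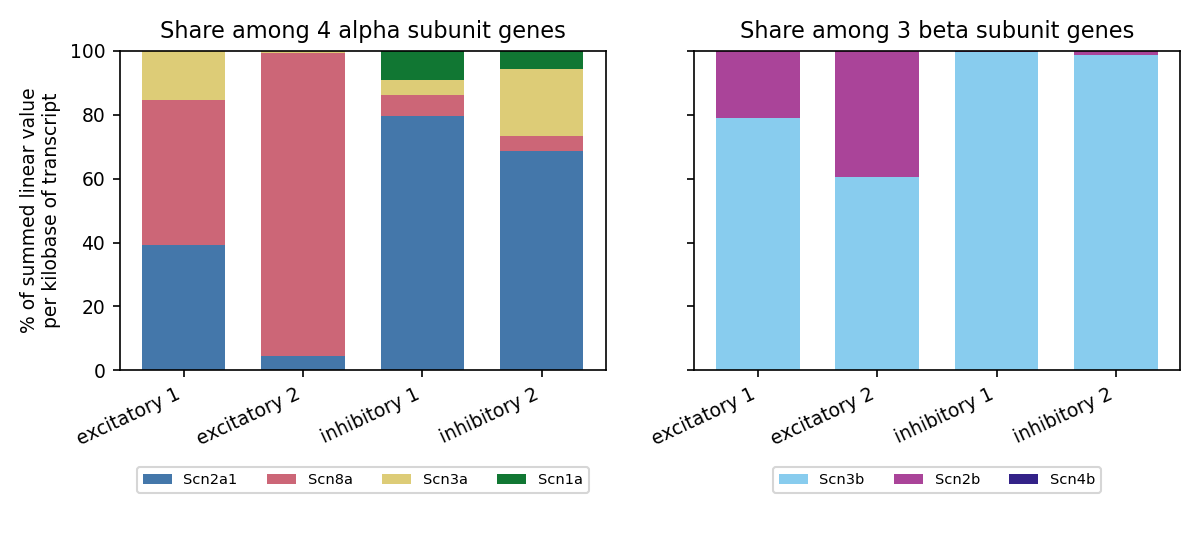
Share of each gene in the summed linear value per kilobase (vertical axis, percent, from 0) among the 4 alpha subunit genes (left) and the 3 beta subunit genes (right), 1 bar per library. Scn8a (45.5% and 95%) leads in the excitatory and Scn2a1 (79.5% and 68.6%) in the inhibitory bars; Scn3b leads among the beta genes in all 4.

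Sequences before the start sites were matched from RefSeq (GRCm38.p6) for 5 of the 7 genes, with no entry for Scn3a and Scn3b. The 3 genes that passed the test are shown, Scn1a higher in the inhibitory and Scn8a and Scn2b higher in the excitatory libraries, each ending before a GENCODE exon of the gene; the Scn8a stretch lies between alternative first exons, inside the annotated gene, and the Scn1a stretch overlaps the antisense gene Gm13629 on the other strand. They are chr2:66440841-66441087 on the minus strand, chr15:100870395-100870644 on the plus strand (the first of 2 entries) and chr9:45117626-45117781 on the plus strand. Capitals mark a CCAAT motif.
Scn1a: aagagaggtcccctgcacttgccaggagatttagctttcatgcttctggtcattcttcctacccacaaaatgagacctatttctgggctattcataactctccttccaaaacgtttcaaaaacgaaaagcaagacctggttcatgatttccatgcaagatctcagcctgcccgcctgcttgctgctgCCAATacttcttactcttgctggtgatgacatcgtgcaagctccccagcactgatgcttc
Scn8a: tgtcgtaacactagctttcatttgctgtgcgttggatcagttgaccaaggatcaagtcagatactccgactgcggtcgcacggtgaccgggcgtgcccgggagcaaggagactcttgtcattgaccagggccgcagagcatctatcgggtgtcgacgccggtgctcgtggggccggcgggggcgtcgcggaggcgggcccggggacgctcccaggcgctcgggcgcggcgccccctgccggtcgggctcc
Scn2b: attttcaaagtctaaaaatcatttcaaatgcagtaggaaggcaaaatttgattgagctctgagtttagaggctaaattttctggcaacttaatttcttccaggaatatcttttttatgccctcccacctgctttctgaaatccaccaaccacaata
The sequences differ in base composition. The 250-base windows before the RefSeq starts held 30 CpG dinucleotides and 68.0% G and C for the first Scn8a entry, 9 and 53.2% for its second, 4 and 46.8% for Scn1a, and 1 and 38.4% for Scn2b, where the median of 32851 such windows was 6 CpG and 52.4%. The first Scn8a window thus lay above the median and the second near it, and Scn2b lay below. Searched on both strands, CCAAT was in the Scn1a and Scn4b windows and in 33.8% of all windows. TATAAA was in the second Scn2a window and in 12.4% of all windows. GGGCGG (32.7% of all windows) and TTCAGCACC (0.301%), the first bases of the element bound by the repressor REST, were in none of the 7 windows of these genes. None of the 7 windows held more than 1 of the searched motifs.

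Some protein-coding genes next to Scn8a and Scn2a were also read, a choice made after the values were seen. Slc4a8, a bicarbonate transporter gene 45.9 kb before Scn8a, had 9.80 and 9.96 (excitatory libraries) against 6.11 and 7.25 (inhibitory libraries) (difference 3.21, SE 0.45, limma adjusted p = 0.00284), a difference close to that of Scn8a. With a library omitted its adjusted p reached 0.107. Fignl2 on its other side was listed at 0 in all 4. Csrnp3, a nuclear protein gene 78.3 kb after Scn2a, had 7.83 and 8.39 against 12.32 and 12.07 (difference -4.09, SE 0.27, adjusted p = 0.000277), and its excitatory libraries lay close together where those of Scn2a1 did not. Of genes that overlap a sodium channel gene on the other strand, Gm10684 (over Scn2b) was listed at 0, 0.27, 0 and 0, and the others were not analysed here. The kits in the protocols are not described as marking strand.

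By pattern over the 4 libraries after scaling (smallest Euclidean distance among 12454 tested genes), the closest gene was Ccdc94 to Scn1a (distance 0.48), Atf6 to Scn8a (0.25), Smpdl3b to Scn2b (0.28) and E2f5 to Scn3b (0.25). Ccdc94, for example, had deposited values of 2.39 and 1.90 against 9.01 and 9.14. Scn2a1 and Scn3a had no such close neighbour, with Glmn at 1.79 and Ythdc1 at 3.33. Gcm2, Kif2c and Kirrel were equally near Scn4b, at 1.47.

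Genes that anchor, bind, cut or regulate sodium channels were described by 5 lists. Of 16 genes of the axon initial segment and node of Ranvier, where ankyrin-G holds the channels, 14 were tested and 8 were higher in the libraries labelled excitatory and 2 in those labelled inhibitory (7 and 3 after scaling). That is 71.4% called, with a median difference of 1.05, against 71.8% and 0.52 over all tested genes. The libraries labelled excitatory held more Sptbn1, a spectrin gene, at 15.13 and 15.15 against 13.18 and 13.36 (3.66-fold, limma adjusted p = 0.000168). Sptan1, which encodes the partner spectrin chain (2.05-fold, 0.000363), and Ank2, an ankyrin gene (2.46-fold, 0.000430), were also higher there. Trim46, which organizes microtubules of the initial segment, had 8.96 and 9.04 (excitatory) but 0 in each inhibitory library (adjusted p = 9.49e-05). Ank3, the ankyrin-G gene, named outside the rule, was 2.44-fold higher in the excitatory libraries (0.000775), a difference that did not pass when inhibitory replicate 1 (0.0524) or inhibitory replicate 2 (0.0561) was omitted. Nrcam, an adhesion molecule gene, had the opposite direction (difference -1.58, SE 0.19, adjusted p = 0.00160), but failed the test when inhibitory replicate 1 (0.0684) or inhibitory replicate 2 (0.0630) was omitted. Cntn1, a contactin gene, was also higher in the libraries labelled inhibitory (-0.50, SE 0.14, adjusted p = 0.0267) but failed the test whichever library was omitted (0.0864 to 0.218). Kcnq3 and Gldn were at 0 in all 4 libraries.

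Of 16 partners and regulators, all tested, 9 were higher in the libraries labelled excitatory and 2 in those labelled inhibitory, which became 3 and 5 after scaling (median difference 0.60, or 0.06 after scaling). That is 68.8% called, or 8 of 16 after scaling, near or below the 71.8% and 65.9% of all tested genes, of which 45.0% and 26.8% were called by direction (32.4% and 33.5% after scaling). The fibroblast growth factor homologous factors, which bind the tail of alpha subunits and shift inactivation, differed in both directions. Fgf14 had 0.43 and 1.90 in the excitatory libraries, the level of 1 and 3 reads, against 10.39 and 10.84 in the inhibitory ones (limma adjusted p = 0.000240). Fgf11 had 8.07 and 8.33 in the excitatory libraries against 4.85 and 5.56 (adjusted p = 0.00204), a difference that did not pass when excitatory replicate 1 (0.0661) or excitatory replicate 2 (0.0723) was omitted. Fgf13 (1.73-fold higher in the excitatory libraries) passed in the deposited values but not after scaling (adjusted p = 0.0799), nor when inhibitory replicate 1 (0.0626) or inhibitory replicate 2 (0.0636) was omitted. Fgf12 did not pass (13.23 and 13.30 against 13.41 and 13.33), but did after scaling, where it was higher in the inhibitory libraries (0.00905). Csnk2a2, a subunit gene of the kinase CK2, which strengthens binding to ankyrin, had 8.17 and 9.02 in the excitatory libraries against 4.52 and 4.66 (0.000968), a difference that did not pass when inhibitory replicate 1 (0.0572) or inhibitory replicate 2 (0.0544) was omitted.

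Beta subunits are cut by BACE1 and then by γ-secretase. Of 8 secretase genes, all tested, 5 were higher in the libraries labelled excitatory and 2 in those labelled inhibitory (4 and 2 after scaling; median difference 1.51, or 0.97 after scaling). Of all tested genes 45.0% and 26.8% were called in these directions, or 32.4% and 33.5% after scaling. Bace1 had 11.23 and 10.95 against 8.35 and 8.90, 5.53-fold higher in the excitatory libraries (limma adjusted p = 0.00142), a difference that did not pass when excitatory replicate 1 (0.0677) or excitatory replicate 2 (0.0597) was omitted. Adam10, which encodes another sheddase, was 10.2-fold higher (0.000595) in the excitatory libraries. Genes of γ-secretase differed in both directions. Ncstn, the nicastrin gene, had 3.84 and 3.30 (excitatory libraries) against 10.45 and 10.23 (inhibitory libraries; adjusted p = 0.000134), and Aph1a was higher in the inhibitory libraries too (difference -1.48, 0.0153), a difference that did not pass when inhibitory replicate 1 (0.167) or inhibitory replicate 2 (0.166) was omitted. Aph1b went the other way, at 6.91 and 6.79 in the excitatory libraries against 0 and 0.78 (adjusted p = 0.000285).

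Of 11 regulators of RNA processing and transcription known for sodium channel genes, all tested, 5 were higher in the libraries labelled excitatory and 2 in those labelled inhibitory, against 3 and 4 after scaling (median difference 0.01, or -0.53 after scaling). The share called was 63.6% in both scalings, near the 71.8% and 65.9% of all tested genes. Celf4, an RNA-binding protein gene whose loss raises Nav1.6, had 17.18 and 17.18 against 16.47 and 16.43 (1.66-fold, limma adjusted p = 0.000244), and did not pass after scaling (0.0620). Rbfox1, a splicing factor gene, was 2.39-fold higher in the excitatory libraries (0.000979). Rbfox2 was 2.35-fold higher there (0.00116), a difference that did not pass when excitatory replicate 1 (0.0632) or excitatory replicate 2 (0.0605) was omitted. The Nova splicing factors went opposite ways. Nova1 had 4.70 and 5.91 (excitatory libraries) against 9.27 and 10.05 (inhibitory libraries; adjusted p = 0.00195), but failed the test when excitatory replicate 1 (0.0576), inhibitory replicate 1 (0.0677) or inhibitory replicate 2 (0.0825) was omitted. Nova2 had 8.60 and 8.52 against 3.91 and 5.61 (0.00506), but failed the test when excitatory replicate 1 (0.138) or excitatory replicate 2 (0.133) was omitted. Rest, the gene of a repressor of neuronal genes including Scn2a, had 1.98 and 0.35 against 4.70 and 5.23 (0.00604), a difference that did not pass when inhibitory replicate 1 (0.111) or inhibitory replicate 2 (0.130) was omitted.

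Of 8 other sodium channel genes, 4 were tested, 1 was higher in the libraries labelled excitatory and 2 in those labelled inhibitory, in both scalings. These 3 of 4 genes are near the 71.8% called over all tested genes. Scn4a, known from skeletal muscle, and Scn10a, known from sensory neurons, were at 0 in all 4 libraries. Scn11a had 0.24 in excitatory 2 and 0 elsewhere. Scn7a, the gene of a sodium-sensing channel, had 0 and 1.88 (excitatory libraries) and 2.54 and 0 (inhibitory libraries) (limma adjusted p = 0.805). Nalcn, which encodes a sodium leak channel, had 1.41 and 0 against 3.77 and 4.85 (adjusted p = 0.00788), but failed the test whichever library was omitted (adjusted p 0.0676 to 0.129).

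**Figure D5:**
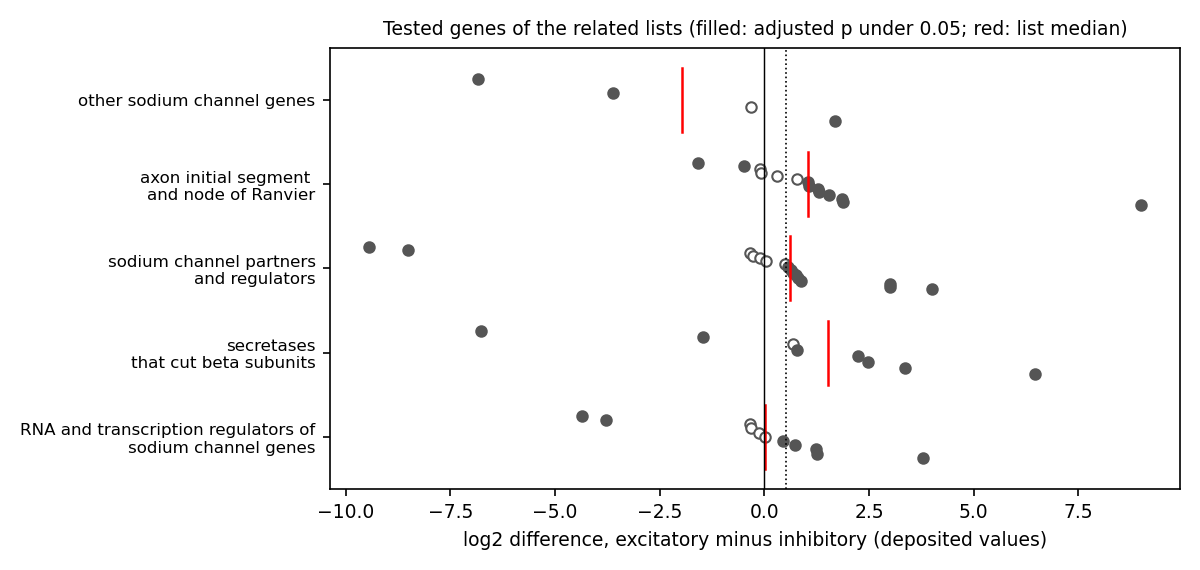
Log2 difference, excitatory minus inhibitory, of deposited values (horizontal axis) for each tested gene of the 5 related lists (rows); filled points passed limma's test, red bars are list medians, and the dotted line is the median of all tested genes, 0.52. Every list has filled points on both sides of 0.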

How the data were processed

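Total RNA of 4 libraries was compared, 2 per label. Per the labels' protocols, picked cells were lysed for cDNA synthesis with SMART-seq v4 and libraries were made with Nextera XT. The authors' deposited tables hold log2 values, turned here into linear values as 2 to the power of the value, minus 1. The low linear values form evenly spaced bands, which is why they are read as normalized reads. The first band lies at 0.315, 0.248, 0.391 and 0.727, below the spacing of each library, so the offset of 1 is not borne out. Low linear values, and the ratios and shares built on them, are therefore approximate. TopHat, edgeR and mm10 are named in the submitters' processing notes, and the counting tool is not given in the sources used here. In R 4.3.3, limma 3.58.1 with a mean-variance trend was fitted to the 13619 genes that reached 1 in 2 or more libraries (Benjamini-Hochberg adjustment), and the scripts were tested on simulated data. Estimated reads are band numbers: the linear value minus the first band, divided by the spacing (1.29, 1.23, 0.720 and 0.871), plus 1. If values under 0 were set to 0, 1 read in an inhibitory library, where the spacing is below 1, would be listed as 0. Low estimated reads there may then be 1 too small. All 7 genes matched GENCODE M21. Alternatives were 2 other scalings, a pseudocount of 10, other filters (none, or a value of at least 5), no trend, each library left out, and the replicate number as a block. The genes, lists and tests were chosen with earlier results of these data known. Named genes were the 7, up to 4 of each list and direction by smallest p, the other sodium channel genes, label checks and the closest pattern; a few genes named by it are left out of the text but not of the counts.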

Additional observations from a re-analysis of the deposited data

How the results depend on the processing

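Scn1a and Scn8a kept direction and call under every alternative run, although the Scn1a difference shrank from -7.10 to -5.38 with a pseudocount of 10. Scn2b lost its call only without excitatory replicate 1 or 2, with differences from 5.17 to 7.15 when 1 library was left out. Leaving out 1 library moved Scn2a1 between -4.97 and -0.81, Scn3a between -5.29 and 0.72, and Scn3b between -0.026 and 0.88; Scn3b was -0.11 after median-of-ratios and -0.094 after upper-quartile scaling. With 1 library left out, 1 to 2 sodium channel genes passed in each direction, and over all genes 3530 to 4241 were higher in the excitatory and 2310 to 2627 in the inhibitory libraries, where the lone library of a label is assumed to vary like the others. The share of Scn3a among alpha genes then differed by -13.2 to 3.16 percentage points (-5.02 with all libraries) and that of Scn4b among beta genes by 0 to 0.00892.

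Counts over the lists moved too. With 1 library left out they were 5 to 7 (initial segment), 3 to 5 (partners), 3 to 5 (secretases) and 2 to 4 (RNA regulators) higher in the excitatory, and 0 to 1, 2, 1 to 2 and 0 to 2 higher in the inhibitory libraries, with 0 to 1 for the other sodium channel genes. Scaling by median of ratios or upper quartile gave 3 or 4 partners higher in the excitatory and 5 under each in the inhibitory libraries. For RNA regulators the median-of-ratios count was 3 higher in the excitatory libraries, and 4 were higher in the inhibitory libraries under either scaling. Requiring a value of at least 5 left 1 RNA regulator and 1 other sodium channel gene higher in the inhibitory libraries. Without the trend 1 initial segment gene was higher there. Why these counts moved was not tested.

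With the replicate number as a block, Scn2a1 passed (difference -2.89, limma adjusted p = 0.0254), so 2 sodium channel genes were higher in the inhibitory libraries; over all genes 6094 and 3688 passed by direction. Same-numbered libraries did not deviate together (r = -0.00193 across 13619 genes), and the labels do not tie the numbers to animals, so the numbers are not taken as pairs. Depth limits Scn1a in the excitatory libraries (about 3 reads each), Scn2b in the inhibitory ones (about 7 and 25) and Scn4b throughout (at most 1).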
